A study of Mus musculus with 22 samples.

Results

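The genes described here are 8 rows of a testes RNA-seq count table, chosen by gene symbol: *Kit*, *Kitl*, *Sohlh1*, *Sohlh2*, *Uchl1*, *Sall4*, *Lin28a* and *Dnmt3b*. The table holds 17931 gene symbols, and all 8 were among the 14640 with enough counts to be tested. RNA was taken from whole testes of 3 wild-type (WT) males, fertile breeders, and 3 MLX KO males, their age-matched littermates, at 7 months. MLX is a transcription factor of the extended MYC network that dimerizes with MondoA and ChREBP. In the MLX KO animals, exons 3 to 6 of *Mlx*, which encode its DNA binding and dimerization region, were deleted in the whole body. The deletion was made in 129S4 embryonic stem cells and through a Meox2-Cre that was later crossed out, and 2 lines from separate clones were in use. Exon 7 was left in place, and which exons the *Mlx* reads fell on was not examined. The *Mlx* counts of the genotypes overlapped (128, 96 and 98 counts in WT1 to WT3 and 94, 109 and 102 counts in KO1 to KO3). They therefore do not check the genotype labels.

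KIT is a receptor tyrosine kinase, and KIT ligand, also called stem cell factor, is the product of *Kitl*. In the testis the ligand is made by Sertoli cells, which line the seminiferous tubules and nurse germ cells, and the receptor appears on spermatogonia, the dividing cells at the base of the tubule, as they leave the undifferentiated state. SOHLH1 and SOHLH2 are basic helix-loop-helix factors needed for spermatogonial differentiation, and *Kit* is a known target of theirs. The other members mark spermatogonia or act in them: the deubiquitinase UCHL1, the zinc finger factor SALL4, the RNA binding protein LIN28A and the DNA methyltransferase DNMT3B. The label "differentiating spermatogonia" covers the members only in part, since KIT is also found on Leydig cells and mast cells, and UCHL1, SALL4 and LIN28A are in undifferentiated spermatogonia as well. A count from whole testes cannot assign a transcript to one of these cells.

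The 3 WT libraries held 16674678 to 19742726 counts and the 3 MLX KO libraries 17016665 to 19003564. TMM factors, which adjust library sizes for composition, were 0.943 to 0.961 in WT and 1.02 to 1.07 in MLX KO. By the quasi-likelihood test of edgeR, 6649 of the 14640 genes differed between genotypes at an adjusted p of 0.05, or 45.4%, with 24.8% of genes higher and 20.6% lower in MLX KO. The median log2 fold change (LFC) over all genes was 0.03, and 0.16 if only library size was scaled for. With that scaling 80.8% of the genes past the threshold were higher, against 54.7% with TMM. The smallest member counts in any library were 49 for *Sohlh1* and 53 for *Sall4*, so counting error weighed most on these 2 genes.

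Sequence upstream of the transcription start is shown for the receptor, its ligand and *Sohlh1*, because *Sohlh1* alone among the 7 members with a RefSeq promoter entry carries the letters CACGTG there. CACGTG is one form of the E-box, CANNTG, the element read by basic helix-loop-helix factors, a class that includes both SOHLH proteins and MLX. The stretches lie on GRCm38.p6, the same coordinates as mm10, run 5′ to 3′ on the strand of the gene, and come from RefSeq, limited to bases before the earliest GENCODE start. E-boxes are in capitals.
*Kit*, chr5:75574737-75574915, plus strand: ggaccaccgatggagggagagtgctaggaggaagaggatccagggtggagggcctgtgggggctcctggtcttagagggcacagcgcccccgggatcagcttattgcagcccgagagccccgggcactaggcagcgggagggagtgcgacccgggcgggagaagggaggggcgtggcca
*Kitl*, chr10:100015571-100015629, plus strand: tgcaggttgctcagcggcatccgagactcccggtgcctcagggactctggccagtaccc
*Sohlh1*, chr2:25847249-25847498, minus strand: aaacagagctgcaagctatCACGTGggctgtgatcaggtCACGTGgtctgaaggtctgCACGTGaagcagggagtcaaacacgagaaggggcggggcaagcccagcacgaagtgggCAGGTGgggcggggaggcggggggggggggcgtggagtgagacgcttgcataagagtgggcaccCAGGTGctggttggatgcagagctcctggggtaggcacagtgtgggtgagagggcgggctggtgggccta
In the 250 bases upstream of the RefSeq start, *Sohlh1* held 3 CACGTG, whose first bases lay at -231, -211 and -192, and 2 CAGGTG, at -134 and -70. Of 32851 RefSeq promoters in mouse, 6.02% held a CACGTG and 20 held 3 or more. CANNTG in any form, to which CACGTG and CAGGTG belong, was in 66.2% of promoters. CACGTG and the general pattern CANNTG read the same on either strand. *Sohlh2* held 1 CAGATG, at -241, *Dnmt3b* held 1 CAGGTG, at -247, and *Kit*, *Kitl*, *Uchl1* and *Lin28a* held no CANNTG in this window. A match of letters is a description and does not show binding, and MLX ChIP-seq was not analysed here.

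*Kit* and *Kitl* rose in MLX KO testes, *Uchl1* rose slightly in the fit without pairs, and the other 5 members, both *Sohlh* genes included, did not pass the test. Thus 3 of 8 members were past the threshold, all higher, beside 45.4% of all genes. With the littermate pair as a block 2 were, *Kit* and *Kitl*, and *Uchl1* was lost (adjusted p = 0.06 in edgeR and 0.394 in DESeq2). The median LFC of the members was -0.08, beside 0.03 for all genes. Groups did not overlap for 4 of the 8, with 3 higher and 1 lower, beside 56.2% of all genes. The 1 lower was *Lin28a*, where WT2 and KO2 were both at 4.26 CPM after rounding. In whole testes, fewer cells of a type and less RNA per cell cannot be told apart. Each n is an animal, from 3 littermate pairs by the study's account.

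*Kit* lies on chromosome 5 of mm10 at 75574916-75656722, on the plus strand. It had 439, 394 and 337 counts in WT1 to WT3, and 627, 714 and 864 counts in KO1 to KO3. As CPM, counts relative to library size with the TMM factor applied, the WT libraries stood at 23.1, 25.1 and 19.0 and the MLX KO libraries at 32.3, 39.5 and 45.7. The MLX KO libraries were all above the WT libraries, with KO1 the lowest of the 3 and WT3 the lowest of all. Means were 22.4 ± 3.09 CPM in WT and 39.2 ± 6.70 CPM in MLX KO (SD, n = 3 each), a 1.75-fold higher level. The LFC was 0.81 (SE 0.13, 95% interval 0.53 to 1.09, adjusted p = 0.000524 from the edgeR test). It was larger than that of 90.7% of genes tested. Within littermate pairs 1, 2 and 3 the difference was 0.48, 0.66 and 1.26 on the log2 scale, so the third pair, which joins the lowest WT library to the highest MLX KO library, differed most. GENCODE lists 8 *Kit* transcripts. Spermatids make a truncated KIT from a start inside the gene, and the gene count does not separate it from the full receptor.

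*Kitl*, on chromosome 10 of mm10 at 100015630-100100416 (plus strand), had 512, 414 and 472 counts in WT and 731, 863 and 921 counts in MLX KO libraries. In CPM the WT testes were close together, at 27.0, 26.3 and 26.6, and the MLX KO testes spread more, at 37.7, 47.7 and 48.8. Again KO1 was the lowest MLX KO library and still above every WT library. The mean rose from 26.7 ± 0.335 to 44.7 ± 6.11 CPM (SD, n = 3 each), 1.68-fold. The LFC of 0.75 (SE 0.09, 95% interval 0.54 to 0.95) had an adjusted p of 0.000124 from edgeR, and the 3 pairs gave differences of 0.48, 0.86 and 0.87. Receptor and ligand transcripts thus both rose, and in pair 1 by the same 0.48.

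**Figure D1:**
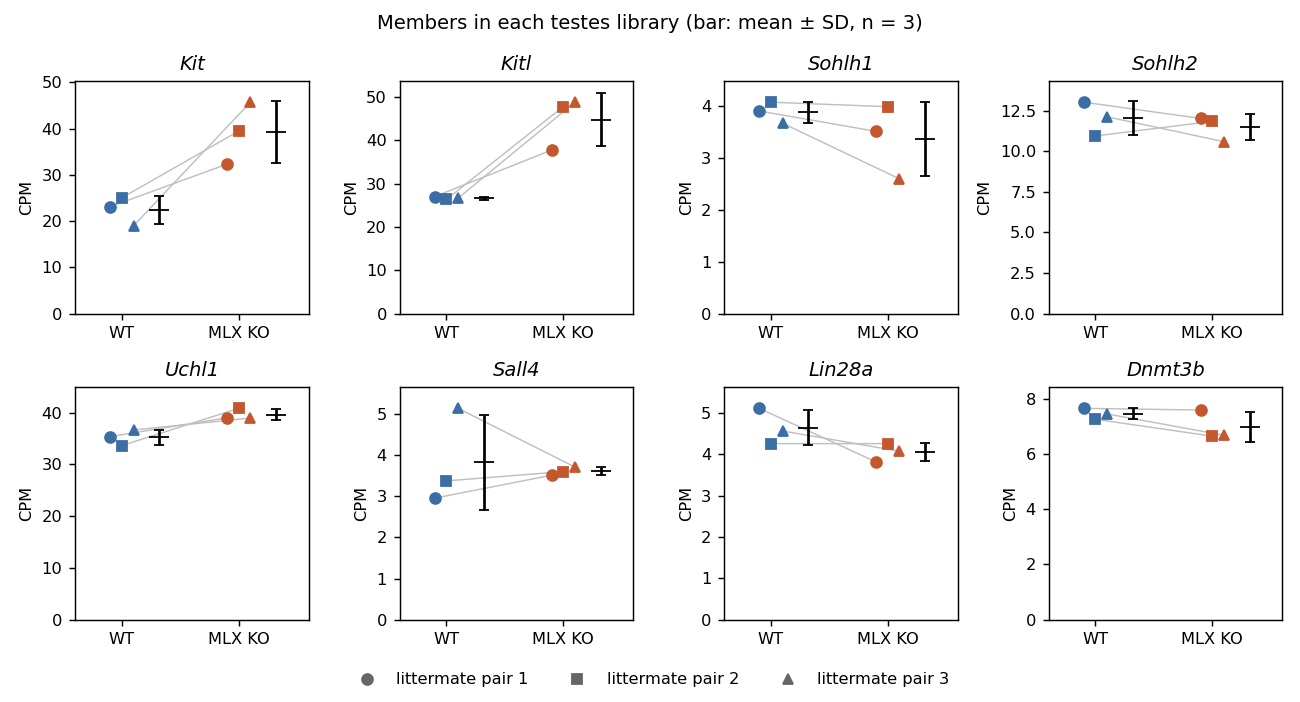
Level of each member in each testes library in CPM (y axis from 0), by genotype, with lines joining littermate pairs and black bars for the mean ± SD of 3 libraries. *Kit*, *Kitl* and *Uchl1* have every MLX KO library above every WT library, while *Sohlh1*, *Sohlh2*, *Sall4* and *Dnmt3b* overlap and the *Lin28a* groups meet at 4.26 CPM.

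The transcription factors *Sohlh1* and *Sohlh2* did not follow *Kit*. *Sohlh1*, on chromosome 2 of mm10 at 25842995-25847248 (minus strand), had 74, 64 and 65 counts in WT and 68, 72 and 49 counts in MLX KO. Its CPM of 3.90, 4.07 and 3.67 in WT overlapped 3.51, 3.98 and 2.59 in MLX KO, where KO3, the library with the most *Kit*, was lowest. The LFC was -0.21 (SE 0.18, 95% interval -0.61 to 0.20, adjusted p = 0.383 from edgeR). *Sohlh2*, on chromosome 3 of mm10 at 55182028-55209957 (plus strand), had 13.0, 10.9 and 12.1 CPM in WT and 12.0, 11.8 and 10.6 CPM in MLX KO. The groups overlapped, with an LFC of -0.07 (SE 0.10, 95% interval -0.30 to 0.16, adjusted p = 0.611 from edgeR). The upper bound for both genes lies below the lower bound for *Kit*.

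The difference between *Kit* and *Sohlh1* was examined within each library, where scaling cancels out. On the log2 scale the ratio of *Kit* to *Sohlh1* CPM was 2.57, 2.62 and 2.37 in WT, and 3.21, 3.31 and 4.14 in the MLX KO libraries. The ratio was higher in 3 of 3 pairs with no overlap, and KO3 stood above KO1 and KO2. The mean went from 2.52 ± 0.13 to 3.55 ± 0.51 (SD, n = 3 each), a difference of 1.03, or 2.04-fold (two-sided exact permutation test, p = 0.1, the smallest that 3 against 3 testes can give). The difference was 0.74 without KO3 and stayed above 0 without each of the libraries in turn.
The ratio of *Kit* to *Kitl* showed no such shift. It was -0.22, -0.07 and -0.49 in WT, and -0.22, -0.27 and -0.09 in the MLX KO libraries, overlapping groups whose means differed by 0.06 (exact permutation test, two-sided p = 0.8). This difference ran from -0.05 to 0.16 with each library left out, so its sign was not settled.

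*Uchl1*, the most abundant member per kilobase of exon, changed least among those past the threshold. It lies on chromosome 5 of mm10 at 66676091-66687234 (plus strand). It had 671, 529 and 650 counts in WT and 756, 738 and 736 counts in MLX KO. The CPM values were 35.4, 33.6 and 36.7 in WT, and 39.0, 40.8 and 39.0 in the MLX KO libraries, without overlap. The mean rose 1.12-fold, from 35.2 ± 1.51 to 39.6 ± 1.07 CPM (SD, n = 3 each), with an LFC of 0.17 (SE 0.06, 95% interval 0.03 to 0.30, adjusted p = 0.0435 from edgeR). The gene was past the threshold in 5 of 15 other settings. An antisense gene, *Uchl1os*, overlaps an exon, and whether the counting used strand is not given in the sources used here.

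*Sall4*, *Lin28a* and *Dnmt3b* were low and had no difference past the threshold. *Sall4*, on chromosome 2 of mm10 at 168748332-168767943 (minus strand), had 56, 53 and 91 counts in WT and 68, 65 and 70 counts in MLX KO. Its 2.95, 3.37 and 5.13 CPM in WT enclosed the 3.51, 3.60 and 3.71 CPM in MLX KO, with WT3 apart from the other WT libraries. The LFC was -0.08 (SE 0.21, 95% interval -0.54 to 0.37, adjusted p = 0.768 from edgeR), and 0.19 without WT3. This was the widest interval of the 8 members.
*Lin28a*, whose protein blocks maturation of the let-7 microRNAs, lies on chromosome 4 of mm10 at 134003330-134018841 (minus strand). It had 97, 67 and 81 counts in WT and 74, 77 and 77 counts in MLX KO. The CPM were 5.11, 4.26 and 4.57 in WT, and 3.82, 4.26 and 4.08 in the MLX KO libraries, so that WT2 and KO2 all but touched. The LFC was -0.20 (SE 0.15, 95% interval -0.52 to 0.12, adjusted p = 0.283 from edgeR).
*Dnmt3b*, on chromosome 2 of mm10 at 153649450-153687730 (plus strand), had 145, 114 and 132 counts in WT and 147, 120 and 126 counts in MLX KO. In CPM these were 7.65, 7.25 and 7.44 in WT, and 7.58, 6.64 and 6.67 in the MLX KO libraries, with KO1 inside the WT range. The LFC was -0.10 (SE 0.12, 95% interval -0.35 to 0.16, adjusted p = 0.525 from edgeR). Genes on the opposite strand overlap exons of all of *Sall4*, *Lin28a* and *Dnmt3b*, and none overlaps *Kit*, *Kitl*, *Sohlh1* or *Sohlh2*.

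**Figure D2:**
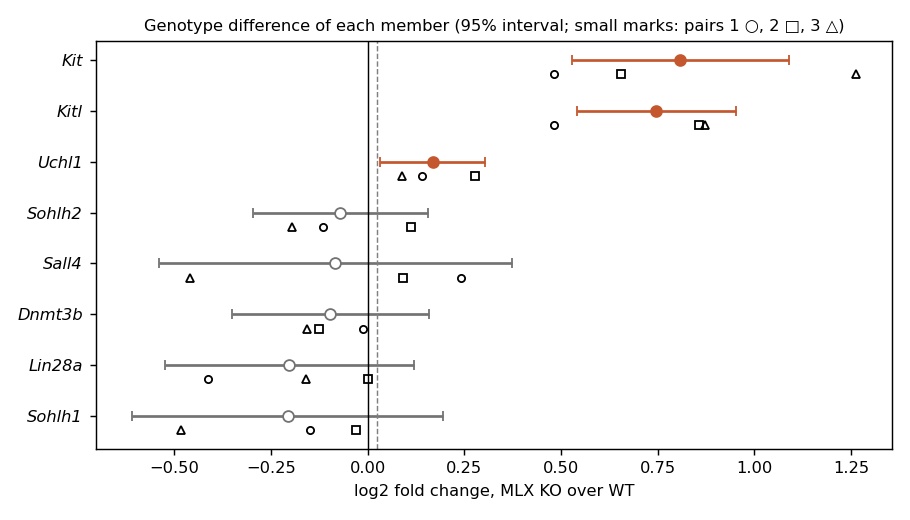
LFC of MLX KO over WT testes for each member (x axis, log2 scale), with 95% intervals from edgeR, filled where the adjusted p was under 0.05, and small marks for the 3 littermate pairs. The solid line is 0 and the dashed line the median of all genes, 0.03. The intervals of *Kit* and *Kitl* start at 0.53 and 0.54, that of *Uchl1* starts at 0.03, and the other 5 span 0.

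Per kilobase of exon the members ranged from 0.690 CPM per kb for *Sall4* to 21.6 CPM per kb for *Uchl1* in WT testes. The order of levels in WT was *Uchl1*, *Sohlh2* (5.09 ± 0.443 CPM per kb; SD, n = 3), *Kitl* (4.51 ± 0.0566), *Sohlh1* (3.01 ± 0.158), *Kit* (2.51 ± 0.347), *Dnmt3b* (1.46 ± 0.0387), *Lin28a* (1.16 ± 0.108) and *Sall4*. Ranges of neighbours in this order did not overlap in WT. In MLX KO testes *Kitl* came before *Sohlh2*, at 7.57 ± 1.03 and 4.86 ± 0.330 CPM per kb, and *Kit* before *Sohlh1*, at 4.40 ± 0.752 and 2.61 ± 0.548 CPM per kb. Here *Sohlh2* and *Kit* overlapped and could not be ordered. Exon length is that of all GENCODE transcripts of a gene together, so the order also depends on which of them the testis uses.

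Across the 6 libraries, log2 CPM of *Kit* and *Kitl* correlated at r = 0.955, a description of 6 points that share the genotype difference. *Kit* and *Sohlh1* gave r = -0.58, and *Kit* and *Dnmt3b* r = -0.78. The 3 genes whose pattern was most like that of *Kit* by Pearson's r over these libraries were *Zfp948* (0.996), *Shoc2* (0.996) and *Siae* (0.996). Those most like *Kitl* were *Kcnk13* (0.999), *Alg5* (0.998) and *Lgr4* (0.998).

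Of 21 genes that carry or curb the KIT signal inside the cell, 10 rose, 3 fell and 8 did not pass the test. Over all genes, 24.8% were higher and 20.6% lower, the shares to set beside each list count here and below. The median LFC of the 21 was 0.19, beside 0.03 for all genes. With library size alone, 12 were higher and 1 lower past the threshold. The largest changes were in *Ptpn6*, the phosphatase SHP-1 (LFC 1.37, adjusted p = 0.00158 from edgeR), *Lyn*, a SRC family kinase (1.08, adjusted p = 0.00338), *Pik3r1*, a regulatory subunit of PI3 kinase (0.77, adjusted p = 0.000811), and *Grb2*, the adaptor to RAS (0.65, adjusted p = 0.000115). Those that fell included *Sh2b3* (LFC -0.49) and *Pik3cd* (-0.21), both named after their values were seen. Summed, the 21 genes stood at 876.7 to 913.9 CPM in WT and 898.0 to 922.5 CPM in MLX KO testes. *Ptpn6* and *Lyn* are abundant in blood cells, and all 8 macrophage markers rose (median LFC 1.35), from summed levels of 71.8 to 77.3 CPM in WT to 138.6 to 147.2 CPM in MLX KO. Their part in the change of *Ptpn6* and *Lyn* was not tested. Among 6 tested receptors and ligands of the PDGF, CSF1 and FLT3 systems, relatives of KIT and its ligand, 3 rose, *Csf1* (LFC 1.50), *Pdgfra* (1.35) and *Pdgfrb* (0.94), and 0 fell.

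Of 7 other genes of spermatogonial differentiation, 1 rose and 1 fell past the threshold, beside 24.8% and 20.6% of all genes. *Ccnd2*, a D-type cyclin, rose (LFC 0.73, adjusted p = 0.00113 from edgeR) and *Dmrtb1* fell (LFC -0.34, adjusted p = 0.000757). With library size alone, 3 were higher and 1 lower past the threshold. *Dmrtb1* stood at 489.1 to 660.0 CPM over the libraries, against 19.0 to 45.7 CPM for *Kit*. Which cells its reads came from was not tested. *Stra8*, induced by retinoic acid and named after its values were seen, had an LFC of 0.27 with an adjusted p of 0.0598, and 0.0465 with the littermate pair as a block in edgeR. Of 14 tested markers of undifferentiated spermatogonia, 3 rose and 3 fell, beside 24.8% and 20.6% of all genes. The largest changes were in *Eomes* (LFC -3.24), *Tspan8* (1.63), *Lhx1* (-1.07) and *Pou3f1* (0.79, adjusted p = 0.0411 from edgeR). *Eomes* had 25 to 30 counts a library in WT and 2 to 5 in MLX KO, and *Pou3f1* had 10 to 24 counts. *Gfra1*, a GDNF co-receptor, also named after its values were seen, had an LFC of -0.04 (adjusted p = 0.779 from edgeR). *Eomes*, *Tspan8* and *Pou3f1* are not restricted to spermatogonia.
Relatives and partners of DNMT3B, LIN28A, UCHL1 and SALL4 were followed as well. *Dnmt1* (LFC -0.25) and *Uhrf1* (-0.21) fell among 4 DNA methylation partners of DNMT3B, *Dis3l2*, which degrades uridylated pre-let-7, fell (-0.32) among 5 genes of the LIN28 and let-7 pathway, and *Bap1* fell (-0.20) among 4 UCHL1 relatives. *Sall2* rose (0.85) and *Sall3* fell (-1.09) among 3 relatives of SALL4. With library size alone, 1 of the 4 DNA methylation partners was higher and 0 were lower past the threshold, and 0 of the UCHL1 relatives passed.

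**Figure D3:**
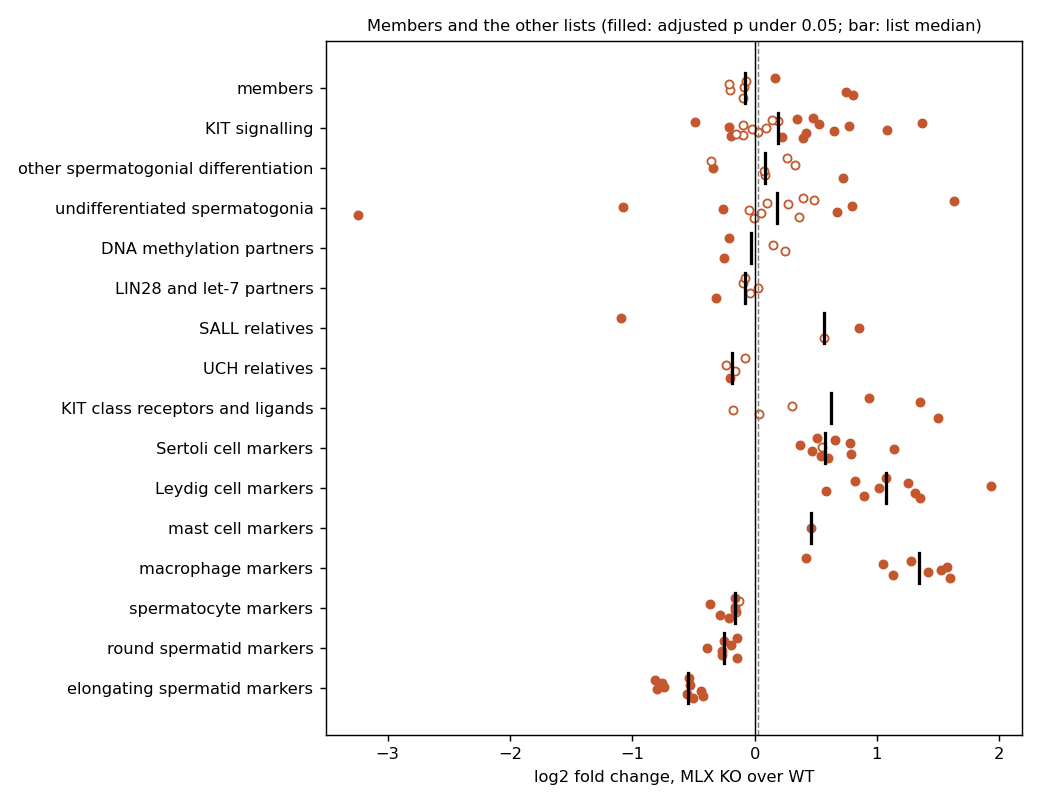
LFC of MLX KO over WT testes (x axis, log2 scale) for every tested gene of each list, filled where the adjusted p from edgeR was under 0.05, with black bars at list medians and a dashed line at the median of all genes, 0.03. Members reach from -0.21 to 0.81, while Sertoli, Leydig and macrophage markers lie right of 0 and the spermatid markers left of it.

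Cells that make KIT or its ligand outside the germ line were followed through their markers. Of all genes tested, 24.8% were higher and 20.6% lower. Of 10 Sertoli cell markers 9 rose (median LFC 0.58), *Fshr*, *Cldn11*, *Sox9* and *Trf* most, and their summed level went from 495.7 to 505.3 CPM in WT to 682.7 to 802.0 CPM in MLX KO. All 9 Leydig cell markers rose (median LFC 1.07), *Insl3*, *Cyp11a1*, *Hsd17b3* and *Lhcgr* most, with sums of 900.9 to 923.8 CPM in WT and 1909 to 2527 CPM in MLX KO. Of 8 mast cell markers, 6, among them the tryptases and the high affinity IgE receptor genes, had at most 3 counts in each library. The mast cell marker *Cpa3*, named after its values were seen, had 2 to 10 counts. Only *Hdc*, at 417 to 790 counts a library, could be tested (LFC 0.46, adjusted p = 0.000893 from edgeR). Whether its reads came from mast cells was not tested. Germ cell markers of later stages were lower: 6 of 8 in spermatocytes (median LFC -0.16), 7 of 7 in round spermatids (-0.25) and 10 of 10 in elongating spermatids (-0.55), and 5 of the 7 round spermatid markers passed with the littermate pair as a block. With library size alone 0 spermatocyte and 3 round spermatid markers were lower past the threshold.

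The ligand was set against the Sertoli markers and the receptor against the Leydig markers, whose sums rose by different amounts. *Kitl* relative to the summed Sertoli markers was -4.20, -4.26 and -4.25 on the log2 scale in WT and -4.18, -4.07 and -4.02 in MLX KO. The groups did not overlap, though KO1 was close to WT1. The means, -4.24 ± 0.03 and -4.09 ± 0.08 (SD, n = 3 each), differed by 0.15, or 1.11-fold, against 1.68-fold for *Kitl* itself (exact permutation test, two-sided p = 0.1, the smallest possible). *Amhr2* made up 39.5% of the Sertoli sum, and without it the difference was 0.11 (exact permutation test, two-sided p = 0.2). The LFC of *Kitl*, 0.75, lay within the LFCs of the single Sertoli markers, which ran from 0.37 to 1.14.
*Kit* relative to the summed Leydig markers went from -5.28, -5.20 and -5.57 in WT to -5.88, -6.00 and -5.67 in MLX KO. All WT libraries were above all MLX KO libraries. The difference was -0.50, or 0.708-fold (exact permutation test, two-sided p = 0.1, the smallest possible). *Insl3* made up 34.1% of the Leydig sum, and without it the difference was -0.22 (exact permutation test, two-sided p = 0.2). Both sums rise with the genotype, and their part in the rise of *Kit* and *Kitl* was not tested.

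**Figure D4:**
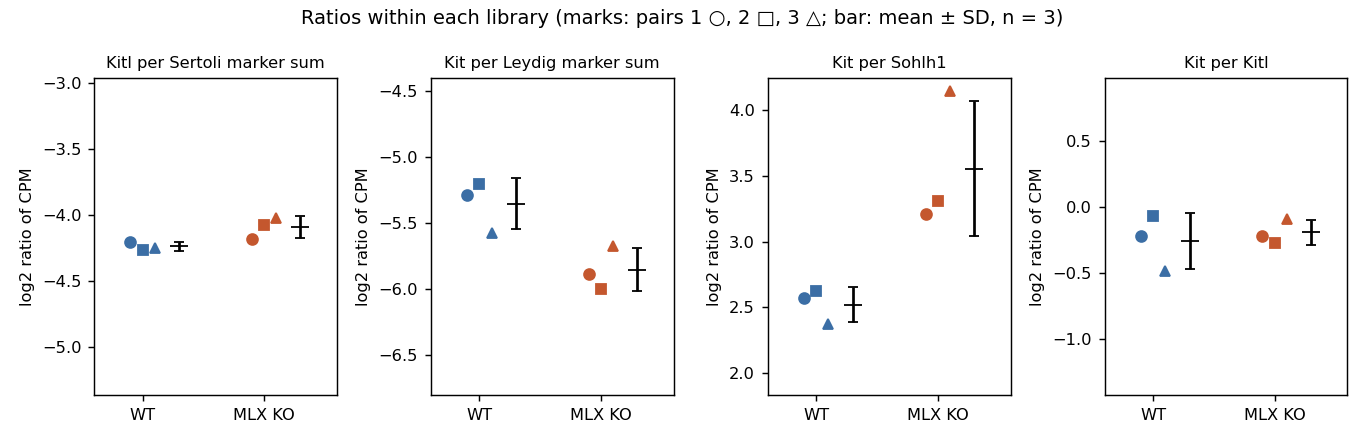
Ratios of CPM within each testes library on the log2 scale (y axes span the same 2.4 units), by genotype, with black bars for the mean ± SD of 3 libraries. *Kit* per *Sohlh1* is higher and *Kit* per Leydig marker sum lower in every MLX KO library, *Kitl* per Sertoli marker sum is higher by 0.15, and *Kit* per *Kitl* overlaps.

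The calls for *Kit* and *Kitl* held in each of 15 other settings, which changed the tool, the scaling, the filter, the pairing or the threshold or left out a library. Over these settings the LFC of *Kit* ran from 0.69 to 0.95, with an adjusted p of at most 0.0023, and that of *Kitl* from 0.69 to 0.89, with an adjusted p of at most 0.00121. *Sohlh1*, *Sohlh2*, *Sall4*, *Lin28a* and *Dnmt3b* were past the threshold in none of the 15, which covers DESeq2 and an unadjusted p of at most 0.05.

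**Figure D5:**
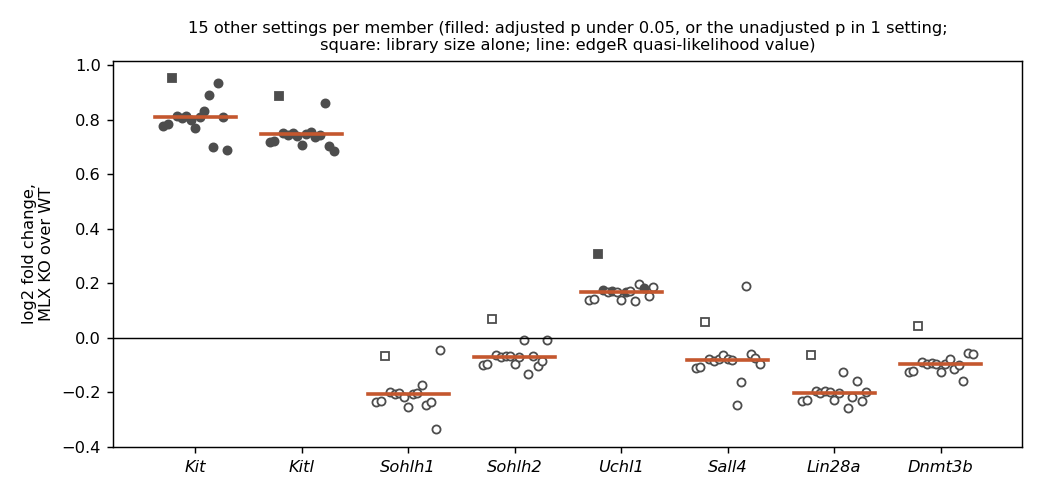
LFC of MLX KO over WT testes for each member (y axis, log2 scale) under 15 other settings (points, filled where past the threshold; squares for library size alone) around the edgeR value (line). *Kit* and *Kitl* stay above 0.68 and filled, *Uchl1* is filled in 5, and *Sohlh2*, *Sall4* and *Dnmt3b* cross 0 with library size alone. *Sall4* also crosses 0 without WT3.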

How the data were processed

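Whole testes RNA of 3 WT males and 3 MLX KO littermates was sequenced from both ends. The authors used TopHat and mm10 for alignment, and the counting tool and gene annotation are not given in the sources used here. The authors deposited whole-number counts per gene symbol and library, without normalization. The deposited table also holds the authors' own comparison (a mean signal, log2 fold changes, a test score and p-values), which was not used. The ChIP-seq libraries were not used here.

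Of 17933 rows 2 repeated another and were dropped. Counts were tested with edgeR 4.0.16 in R 4.3.3 (default filter, minimum count 10; TMM; quasi-likelihood, genotype only), two-sided, with Benjamini-Hochberg adjustment over 14640 genes and a threshold of 0.05. SE is the LFC over the root of its F. Ratios within libraries used exact permutation tests. DESeq2 1.42.0 was an alternative. Titles number the samples as pairs and the study calls them littermates, so the numbers pair the samples. Same-numbered libraries deviated from group means with correlations of 0.145, 0.0363 and 0.121, others with at most 0.033. No libraries were duplicates. By chi-square of counts per degree of freedom, KO1 differed more from KO2 (8.22) and KO3 (8.23) than KO2 from KO3 (2.73). Between WT libraries this measure was 3.03 to 4.31. Code was tested on simulated data. Named genes are all 8 members and the 4 largest changes past the threshold in each other list, except that macrophage and later germ cell markers are given by count and a few genes named after their values were seen are marked so. The members and lists were chosen with earlier results of these data known.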

Additional observations from a re-analysis of the deposited data

How the results depend on the processing

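With 3 testes a group, an exact test on a single ratio cannot go below p = 0.1, and intervals for *Sall4* and *Sohlh1* are wide at 49 to 91 counts a library. *Uchl1* was not past the threshold with DESeq2 (LFC 0.138, adjusted p = 0.243), DESeq2 size factors (adjusted p = 0.0772), no filter (0.0584), or without WT1 (0.0981), WT2 (0.161), WT3 (0.0516), KO2 (0.125) or KO3 (0.0695). Under the replicate block, with littermates paired, *Uchl1* had an adjusted p of 0.06 in edgeR and 0.394 in DESeq2, and no other member's call changed. Library size alone turned the LFC of *Sohlh2* to 0.068, *Sall4* to 0.056 and *Dnmt3b* to 0.041, none past the threshold, below the median of all genes with that scaling, 0.16. With each library left out the LFC of *Sall4* ran from -0.248, without WT1, to 0.191, without WT3. The count of members past the threshold was 2 or 3 in all settings. *Kit* per Leydig marker sum moved to -0.31 with the mean of log2 (CPM + 0.5) of the markers and to -0.22 without *Insl3* (exact permutation test, two-sided p = 0.2 each). It ran from -0.61 to -0.43 with each library left out.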
